A study of Mus musculus with 10 samples.

Results

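The genes for the proteins of the cytosolic ribosome were followed in platelets, which lack a nucleus and arise from megakaryocytes. They were taken by gene symbol: symbols that begin Rpl or Rps and go on with a digit, together with Rplp0, Rplp1, Rplp2 and Rpsa, leaving out pseudogene symbols and the S6 kinases. The rule found 86 of the 23420 genes of the count table. Of these, 52 name large-subunit (60S) genes and 33 small-subunit (40S) genes, and 1, Rps19bp1, names a nucleolar binding partner of Rps19 that is not a ribosomal protein. Within the subunits, 77 genes (46 large, 31 small) are the core genes and 8 are paralogues with a symbol of their own. Platelets of adult mouse peripheral blood had been sorted by flow cytometry into cells with (Tomato+) and without (Tomato-) a red fluorescent protein, and 5 libraries were sequenced from each fraction. The sources used here do not give the strain, the genotype, the promoter that drives Tomato, any treatment or the number of animals. The labels do not say that libraries came from separate animals, so the p-values measure the spread between libraries, which may be technical. Titles number the Tomato+ libraries 1 to 5 and the Tomato- libraries 6 to 10, so the order of the samples and the fraction cannot be told apart.

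Each ribosome holds a single copy of nearly all of its proteins, and dividing cells make these proteins in balanced amounts. Their mRNAs are among the most abundant in growing cells, and most begin with a terminal oligopyrimidine (TOP) tract, through which LARP1 and mTOR signalling set their translation. Platelets have no nucleus and inherit their ribosomes and mRNAs from the megakaryocyte, so a platelet makes no new mRNA of these genes.

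Total counts ranged from 5.41 to 16.2 M per library (M, 1000000 counts), and 807 to 2450 genes had a count in a library. Platelet markers such as Ppbp and Pf4 were present in every library, and the 13 platelet markers together held 75287 ± 7168 counts per 1000000 counts of the library (CPM) in the Tomato+ fraction, and 77033 ± 3959 in the Tomato- fraction (mean ± SD, n = 5 each). Of markers of other blood cells, 5 of 11 red cell genes, 1 of 10 neutrophil genes, 2 of 7 monocyte genes, 1 of 5 B cell genes and 1 of 8 T and NK cell genes had any count. Summed red cell markers ranged from 1.38 to 499.99 CPM in Tomato+ libraries and from 47.7 to 3523 CPM in Tomato- libraries. Cd79a, Cd3e and Csf1r were at 0 throughout, but other genes of the same lists were not. Cd74 and Nkg7 had counts in the library Tomato- 4. Of the monocyte genes, Fcgr1 peaked in Tomato+ 4 (18.7 CPM), and Ly6c2 was seen in Tomato+ 5 only (0.0872 CPM). As 18728 of the 23420 genes had no count in any library, a marker at 0 says little about whether such cells were absent. Endothelial genes, which platelets partly share, had counts for 4 of 7.

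Ribosomal protein genes have many near-identical copies in the mouse genome, and the coding sequences below show how close some of them are. They were read from GENCODE M21 transcripts of GRCm38, the assembly that mm10 names. Rpl41 is shown because it was the only member with counts in every library. It lies at chr10:128548114-128549305 on the minus strand. Its coding sequence has 78 bases, here with the start and stop codons in capitals, and the whole of it also occurs in transcripts of 3 other annotated genes.
Rpl41: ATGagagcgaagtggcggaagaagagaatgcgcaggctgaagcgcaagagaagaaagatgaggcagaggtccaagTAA

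Rpl39 and its paralogue Rpl39l, and Rps27 and its paralogue Rps27l, are shown because each pair codes for closely related proteins and no paralogue had a count. Rpl39 lies at chrX:37082520-37085402 on the minus strand, and Rpl39l at chr16:10170226-10174911 on the plus strand. Capitals mark the 23 bases of 156 at which they differ, so that 85.3% are identical.
Rpl39: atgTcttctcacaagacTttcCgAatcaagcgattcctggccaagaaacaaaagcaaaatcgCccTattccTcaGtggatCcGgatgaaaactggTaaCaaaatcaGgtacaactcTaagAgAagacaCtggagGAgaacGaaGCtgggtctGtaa
Rpl39l: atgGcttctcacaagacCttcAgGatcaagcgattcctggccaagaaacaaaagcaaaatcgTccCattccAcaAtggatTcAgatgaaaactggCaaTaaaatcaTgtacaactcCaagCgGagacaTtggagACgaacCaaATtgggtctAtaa
Rps27 lies at chr3:90212522-90213651 on the minus strand, and Rps27l at chr9:66946086-66949516 on the plus strand. Capitals mark the 61 bases of 255 at which these differ (76.1% identical).
Rps27: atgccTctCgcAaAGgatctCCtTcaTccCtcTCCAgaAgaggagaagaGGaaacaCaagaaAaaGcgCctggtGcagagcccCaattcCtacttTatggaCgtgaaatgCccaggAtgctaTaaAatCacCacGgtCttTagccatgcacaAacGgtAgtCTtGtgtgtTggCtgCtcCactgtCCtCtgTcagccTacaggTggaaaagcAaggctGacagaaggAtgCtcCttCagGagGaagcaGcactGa
Rps27l: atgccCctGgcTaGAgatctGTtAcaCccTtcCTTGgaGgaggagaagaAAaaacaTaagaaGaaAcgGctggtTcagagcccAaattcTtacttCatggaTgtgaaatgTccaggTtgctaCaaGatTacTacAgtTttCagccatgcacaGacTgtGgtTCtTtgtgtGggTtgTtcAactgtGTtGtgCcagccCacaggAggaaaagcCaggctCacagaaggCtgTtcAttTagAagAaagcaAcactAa
Rpl39 had counts in 2 libraries, and Rpl39l, Rps27 and Rps27l had none. A further annotated copy, Rps27rt, which the table lists as Gm9846 and also holds at 0, has a coding sequence identical to that of Rps27, with 0 differing bases. The sources used here do not say how reads that match several genes were counted, so levels of members with such copies are uncertain.

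Ribosomal protein mRNAs were present in both platelet fractions, but most of them appeared in a few libraries and were missing from the others. At least 1 library held a count for 63 of the 86 members (73.3%), against 4692 of all 23420 genes (20.03%). Among the 63, 1 member had counts in all 10 libraries (1.59%), 12 had counts in 5 or more (19.0%), 33 in 2 to 4 and 18 in 1 library (28.6%). The same shares over the 4692 genes with a count were 5.63% in all 10, 25.2% in 5 or more and 42.8% in 1 library. Across the 10 libraries, 191 of the 860 member values were above 0 (22.2%), compared with 6.36% for all genes. The median of the values above 0 was 16.7 CPM for members and 84.8 CPM for all genes.

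Few of these values were at the edge of detection. Among the 191 values above 0, 116 (60.7%) were at 10 CPM or more and 19 were below 1 CPM, whereas 3 counts, the upper limit that a count of 0 allows, are worth 0.185 to 0.554 CPM depending on the library. Among values above 0 of all genes, 74.5% were at 10 CPM or more. This limit covers counting error only, since the libraries carry no molecular identifiers and amplified reads are not independent molecules. Member values were thus usually either at 0 or well above that limit, as were those of all genes. In bulk libraries, fewer cells carrying an mRNA and less of it per cell cannot be told apart.

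**Figure D1:**
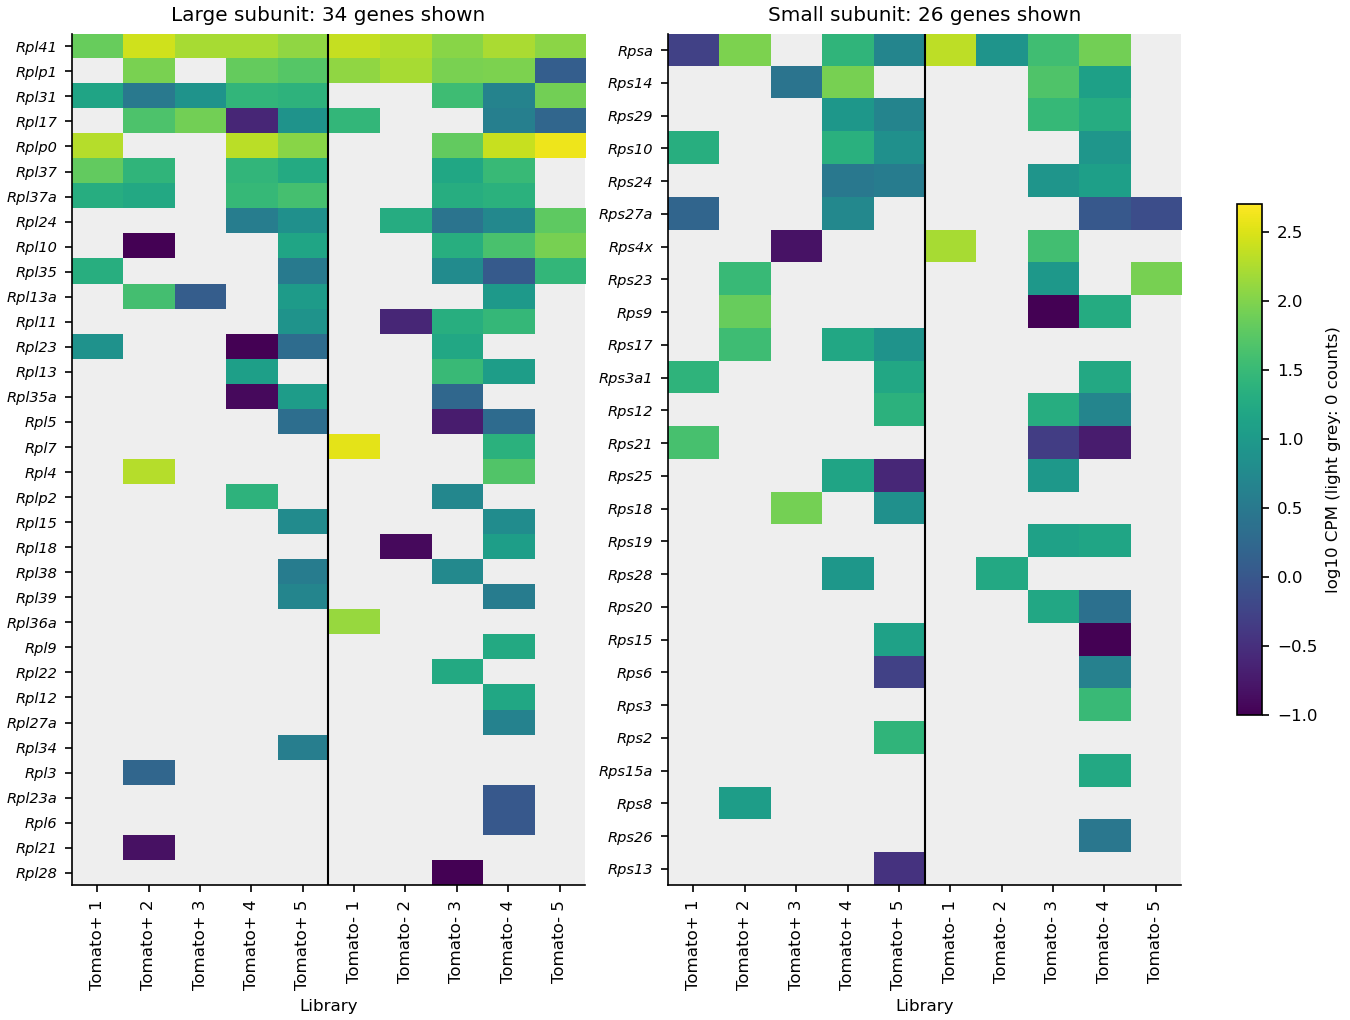
Level (log10 CPM, colour; light grey, 0 counts) of 60 ribosomal protein genes with a count, in genes (vertical axis) by libraries (horizontal axis), with a line between Tomato+ and Tomato-. Rpl41 is the only filled line of cells, and Tomato- 4 holds the most members, 43.

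The subunits differed in how many of their genes were seen and in how many recurred. Of the 31 core small-subunit genes 28 had a count (90.3%), and of the 46 core large-subunit genes 35 had one (76.1%). Yet 11 of the 35 large-subunit genes were present in 5 or more libraries and 1 of the 28 small-subunit genes was, Rpsa. Over all libraries the share of values above 0 was nearly alike, 25.7% for core large-subunit and 23.5% for core small-subunit genes. Values above 0 had a median of 19.9 CPM for the large and 13.2 CPM for the small subunit. These are descriptions without a test, because the genes of a subunit share libraries and are not replicates.

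The 14 core genes without a count in any library were Rpl7a, Rpl8, Rpl10a, Rpl14, Rpl19, Rpl26, Rpl27, Rpl29, Rpl30, Rpl32 and Rpl36 of the large subunit and Rps7, Rps16 and Rps27 of the small subunit. All encode proteins of the standard ribosome. All 8 paralogues (Rpl3l, Rpl7l1, Rpl10l, Rpl22l1, Rpl36al, Rpl39l, Rps27l and Rps4y2, an older symbol of Rps4l) were at 0 in all 10 libraries, as was Rps19bp1. Rps4l has 1 exon and 0 coding bases in GENCODE M21, and it was counted as a small-subunit paralogue by its symbol alone. Rpl3l is known from striated muscle, and Rpl10l and Rpl39l from the testis.

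How many members a library showed went with how many genes it showed in all. Tomato+ libraries 1 to 5 held 13, 16, 8, 22 and 33 members, and Tomato- libraries 1 to 5 held 7, 8, 31, 43 and 10. The groups overlapped throughout, with means of 18.4 ± 9.61 and 19.8 ± 16.3 members (SD, n = 5 each). All genes with a count numbered 1243, 1421, 1118, 1713 and 2450 in Tomato+ libraries 1 to 5 and 902, 978, 1838, 2430 and 807 in Tomato- libraries 1 to 5. The 3 libraries with the most members (Tomato- 4, Tomato+ 5 and Tomato- 3) were also those with the most genes. When every library was thinned to the smallest total of the series, the mean over all 10 was 18.7 members, compared with 19.1 without thinning.

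Libraries with more large-subunit genes mostly held more small-subunit genes, and mostly more genes in all. Tomato- 4 held 25 large and 18 small members, Tomato+ 5 held 20 and 13, and Tomato- 3 held 19 and 12. At the other end, Tomato- 1 held 5 large and 2 small members, Tomato- 2 held 5 and 3, and Tomato+ 3 held 4 and 4. Between these, Tomato+ 4 held 13 and 9, Tomato+ 2 held 11 and 5, Tomato+ 1 held 8 and 5, and Tomato- 5 held 8 and 2. Whether the subunits went together beyond the number of genes in all was not tested.

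**Figure D2:**
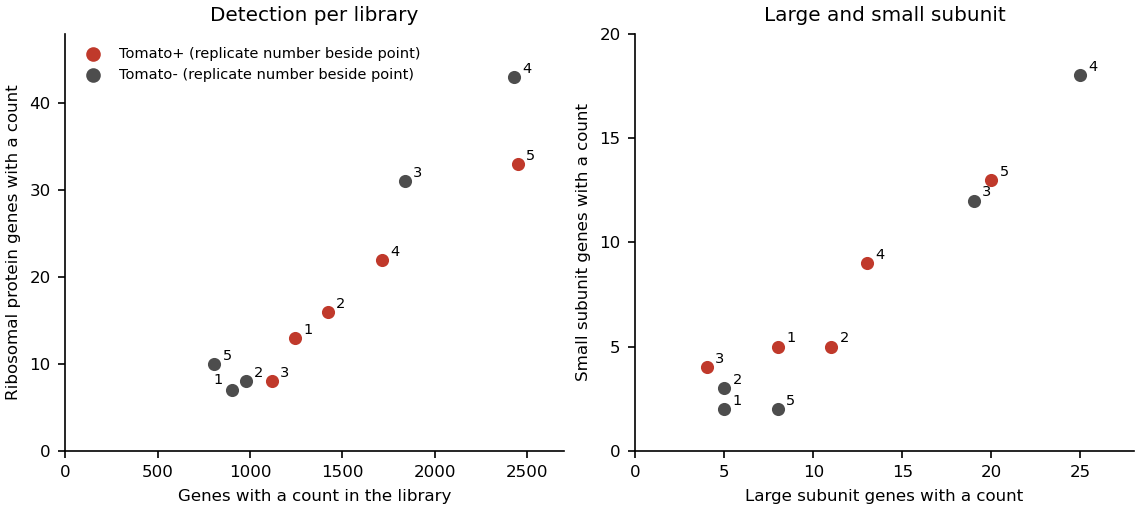
Left, ribosomal protein genes with a count against all genes with a count, per library. Right, small-subunit against large-subunit genes with a count. Points are libraries, red for Tomato+ and grey for Tomato-, with the replicate number beside them; Tomato- 4 and Tomato+ 5, with 43 and 33 members, lie highest in both panels.

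Tomato- 4 alone supplied 9 of the 63 members seen, so that 54 were left without it. Among these were Rps3 of the small subunit at 32.6 CPM and Rpl9 of the large subunit at 17.9 CPM. That library also had the highest level of the beta-globin gene listed as Beta-s, at 3257 CPM, and was the only one with counts for Alas2 (183 CPM), the erythroid haem synthesis enzyme, Cd74 (74.9 CPM), an antigen presentation gene, and Nkg7 (20.7 CPM), a cytotoxic granule gene. Other libraries held such markers as well: S100a9, a neutrophil gene, was at 239.8 CPM in Tomato+ 3 alone, a library with 8 members, and Fech, a haem synthesis enzyme, had counts in Tomato+ 2 (319.8 CPM) and Tomato+ 5 (52.8 CPM). The part of such cells in the ribosomal protein counts was not tested.

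Ribosomal protein genes made up a small share of platelet counts. The 86 members summed to 525, 929, 479, 783 and 573 CPM in Tomato+ libraries 1 to 5 and to 1243, 616, 733, 1132 and 868 CPM in Tomato- libraries 1 to 5. The means were 658 ± 191 CPM in Tomato+ and 918 ± 265 CPM in Tomato- (SD, n = 5 each), that is 0.0658% and 0.0918% of all counts. The ranges overlapped, and the log2 ratio of the means was -0.48. With TMM scaling this ratio was -0.27, and for Rpl41, the only member present everywhere, it was -0.04. Red cell markers also had a higher mean in Tomato- (946 ± 1467 CPM) than in Tomato+ (226 ± 250.1 CPM). That Tomato- mean rests largely on Tomato- 4, where Beta-s was at 3257 CPM, beside 44.2 to 696 CPM in the other Tomato- libraries. Without Tomato- 4 the log2 ratio of the ribosomal protein sums was -0.39. A part of red cells in these sums was not tested.

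The division of these counts between the subunits was alike in the means of the fractions, with a wide spread. Large-subunit genes took 72.9 ± 11.7% of the ribosomal protein counts in Tomato+ and 72.5 ± 11.01% in Tomato- (n = 5 each), ranging from 52.9% in Tomato+ 3 to 89.7% in Tomato- 5. Without Rpl41 the mean over all 10 libraries was 64.1%, compared with 72.7% with it. In CPM, the large subunit summed to 484 ± 166 in Tomato+ and 672 ± 223 in Tomato-, and the small subunit to 174 ± 66.2 and 246 ± 105.

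The leading genes, and the share of counts they held, varied between libraries. The 3 most abundant members held 36.0 to 92.6% of a library's ribosomal protein counts. The leading gene was Rplp0 in Tomato+ 1 and 4 and in Tomato- 4 and 5, Rpl41 in Tomato+ 2, 3 and 5 and in Tomato- 3, and Rpl7 in Tomato- 1. Rpl41 alone held 23.8 ± 8.01% of these counts in Tomato+ and 18.4 ± 6.84% in Tomato-.

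**Figure D3:**
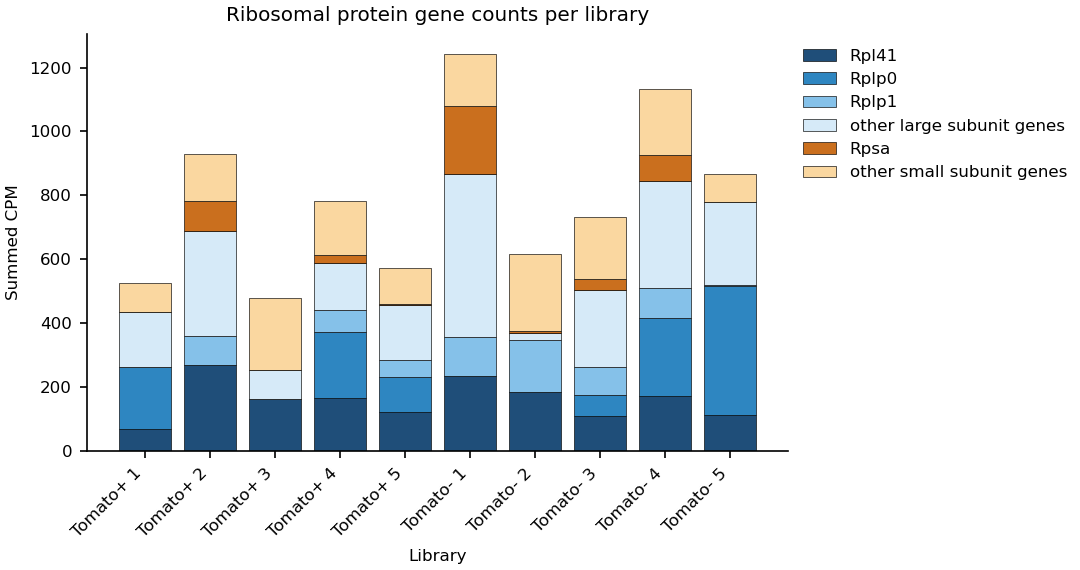
Summed CPM of ribosomal protein genes (vertical axis) in each library (horizontal axis), stacked by gene: blues are large-subunit and oranges small-subunit genes. Sums run from 479 CPM in Tomato+ 3 to 1243 CPM in Tomato- 1, and Rplp0 is absent from Tomato+ 2 and 3 and Tomato- 1 and 2.

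Rpl41 encodes a very short, arginine- and lysine-rich peptide of the large subunit. Its level in Tomato+ libraries 1 to 5 was 69.2, 270.4, 163, 167 and 123 CPM, and in Tomato- libraries 1 to 5 it was 235, 185, 109, 171 and 113 CPM. The groups overlapped almost entirely, with means of 158 ± 73.9 and 163 ± 52.6 CPM (SD, n = 5 each). Its fitted log2 fold change, Tomato+ over Tomato-, was 0.22 (SE 1.67, 95% interval -3.33 to 3.77). When only the 225 genes with 10 counts in every library were fitted, it was 0.04 (SE 0.44), with an adjusted p of 0.982 from edgeR's quasi-likelihood test. By mean CPM over the 10 libraries it ranked 593 among all genes.

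The P-stalk proteins Rplp0, Rplp1 and Rplp2 form the flexible arm of the large subunit that recruits translation factors. Rplp0 (chr5:115559467-115563727, plus strand) was at 193, 0, 0, 207 and 109 CPM in Tomato+ libraries 1 to 5 and at 0, 0, 65.5, 246 and 405 CPM in Tomato- libraries 1 to 5. It was among the 3 most abundant members of each library that held it, and its highest value, 405 CPM in Tomato- 5, was the highest of any member. Rplp1 (chr9:61913284-61914542, minus strand) was at 0, 89.1, 0, 67.3 and 53.9 CPM in Tomato+ and at 121, 163, 89.1, 93.0 and 1.29 CPM in Tomato-. Rplp2 had counts in Tomato+ 4 (25.0 CPM) and Tomato- 3 (5.20 CPM). The 3 genes of this stalk therefore did not appear together: Rplp0 was at 0 in Tomato+ 2, where Rplp1 reached 89.1 CPM, and Rplp1 was at 0 in Tomato+ 1, where Rplp0 reached 193 CPM.

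Among other large-subunit genes, Rpl31, a protein near the exit of the nascent peptide tunnel, was present in all 5 Tomato+ libraries, at 14.7, 3.14, 7.99, 26.9 and 24.4 CPM. In Tomato- libraries 1 to 5 it was at 0, 0, 35.2, 4.53 and 80.9 CPM, a range that encloses that of Tomato+. Rpl37 was at 64.2, 26.4, 0, 27.1 and 18.3 CPM in Tomato+ and at 0, 0, 16.0, 31.0 and 0 CPM in Tomato-. Rpl37a, a different protein despite the similar name, was at 20.4, 17.2, 0, 29.8 and 40.2 CPM in Tomato+ and at 0, 0, 20.2, 22.8 and 0 CPM in Tomato-. Rpl37 and Rpl37a had counts in the same 6 libraries, 4 of them Tomato+ and 2 Tomato-.

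Rpl17, which also lies near the tunnel exit, was at 0, 46.9, 81.3, 0.247 and 7.85 CPM in Tomato+ and at 28.2, 0, 0, 3.96 and 1.66 CPM in Tomato-. Rpl24, a protein at the bridge between the subunits, was at 0, 0, 0, 3.71 and 7.23 CPM in Tomato+ and at 0, 19.6, 2.65, 5.28 and 61.5 CPM in Tomato-. For Rpl17 the higher mean was thus in Tomato+ (27.3 ± 35.9 against 6.76 ± 12.1 CPM), and for Rpl24 in Tomato- (17.8 ± 25.6 against 2.19 ± 3.25 CPM), and both pairs of ranges overlapped. Rpl10, which completes the large subunit late in its assembly, had 1 count in Tomato+ 2 (0.073 CPM) and 14.99 CPM in Tomato+ 5, and 21.2, 43.9 and 86.1 CPM in Tomato- libraries 3 to 5. Rpl35 lay between 1.13 and 28.6 CPM in its 5 libraries, 2 of them Tomato+.

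In the small subunit, Rpsa, which also bears the name laminin receptor, was at 0.513, 92.0, 0, 26.5 and 4.88 CPM in Tomato+ and at 215, 8.26, 36.5, 81.3 and 0 CPM in Tomato- (chr9:120127689-120132369, plus strand). Its values above 0 ran from 0.513 to 92.0 CPM in the Tomato+ libraries and from 8.26 to 215 CPM in the Tomato- libraries. Rps14 was at 88.1 CPM in Tomato+ 4, 47.8 CPM in Tomato- 3, 12.6 CPM in Tomato- 4, 2.61 CPM in Tomato+ 3 and 0 in the other 6 libraries. Rps4x reached 163 CPM in Tomato- 1, with 37.5 CPM in Tomato- 3 and 1 count (0.154 CPM) in Tomato+ 3. Rps23, a protein of the decoding centre, was at 31.5 CPM in Tomato+ 2, 9.46 CPM in Tomato- 3 and 88.7 CPM in Tomato- 5.

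Some of the highest levels belonged to genes seen in 2 libraries. Rpl7 reached 348 CPM in the library Tomato- 1, with 23.3 CPM in Tomato- 4 and 0 elsewhere. Rpl4 was seen in Tomato+ 2 (195 CPM) and Tomato- 4 (49.1 CPM). Both were among the most abundant members of 1 library and had no count in 8 others. Members with a count in 1 library ranged from a single count (Rpl28, 0.0946 CPM in Tomato- 3) to 133 CPM (Rpl36a, in Tomato- 1 alone).

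**Figure D4:**
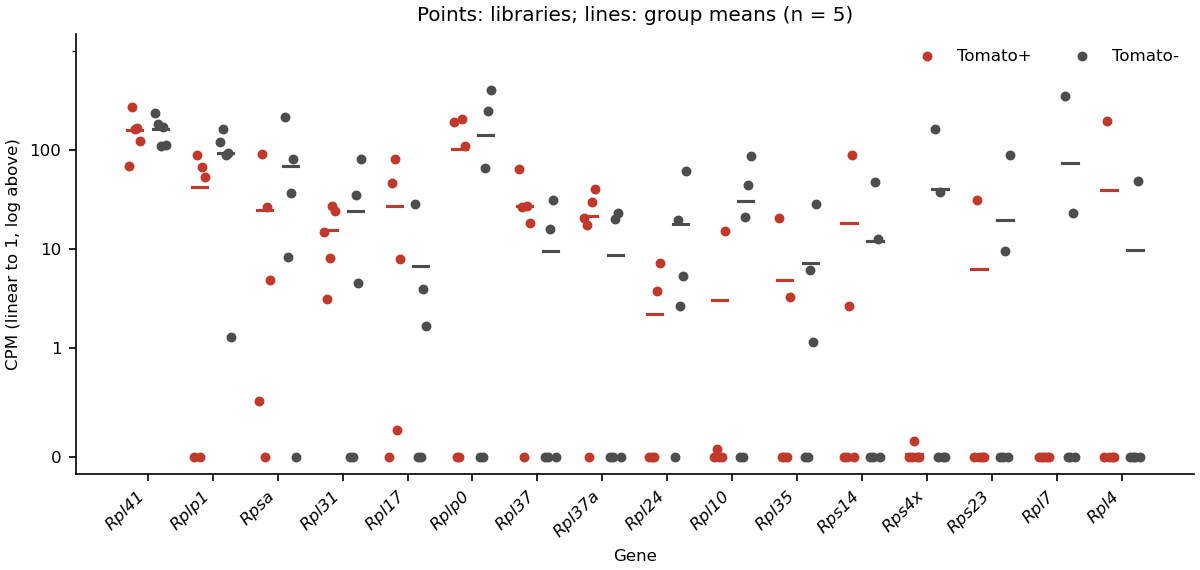
CPM (vertical axis, linear to 1 and logarithmic above) of 16 named ribosomal protein genes with a count. Points are libraries, red for Tomato+ and grey for Tomato-, and lines are group means (n = 5 each); the points of the fractions overlap for every gene shown.

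No ribosomal protein gene separated the fractions, but few could have. The ranges of Tomato+ and Tomato- overlapped for all 63 members with a count, so that 0 members and 0.149% of the 4692 genes with a count did not overlap. At so low a share, 0 of 63 says little about the members. Most members were at 0 in at least 1 library of each fraction, which makes the ranges overlap whatever the other values. In edgeR's quasi-likelihood test, 11 members passed the expression filter and 0 of them had an adjusted p under 0.05, where 0% of the 1016 genes tested were called. At an unadjusted p under 0.05 it was 0 members and 0.886% of all genes tested, and by DESeq2 0 members and 0.0984% of all genes at an adjusted p under 0.05. Each of the 11 had an adjusted p of 0.9996 in edgeR. They passed the filter because they were high in several libraries, so they do not stand for all 86.

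The fitted log2 fold changes, Tomato+ over Tomato-, were positive for 4 of the 11 (Rpl17, Rpl37, Rpl37a and Rpl41), and their median was -0.32, beside 0.21 over all 1016 genes. The sign of this median rests on single libraries, since without Tomato- 5 it was 0.41 (10 of 16 members tested positive) and without Tomato- 3 it was 0.11 (7 of 13). The highest was 2.30 for Rpl17 (SE 2.48, 95% interval -2.95 to 7.56), and the lowest was -2.54 for Rpl24 (SE 2.35, 95% interval -7.53 to 2.44). Rplp1 was at -0.87 (SE 2.31), Rplp0 at -0.32 (SE 2.63) and Rpsa at -1.26 (SE 2.38). These intervals are wide, and differences of several fold in either direction were not detectable at this spread between libraries. The sign turned for Rpl41 with total-count scaling (-0.04) and without Tomato+ 2 (-0.09), and for Rplp0 without Tomato- 5 (0.43).

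Most members with a count were seen in both fractions. Of the 63 members, 39 had counts in both fractions (61.9%), 8 in Tomato+ alone (12.7%) and 16 in Tomato- alone (25.4%). Over all 4692 genes these shares were 49.7%, 25.5% and 24.8%. Of the 16 members seen in Tomato- alone, Rpl7 reached the highest level, and of the 8 seen in Tomato+ alone, Rps18, a protein of the small-subunit head, did, with 84.2 CPM in Tomato+ 3 and 7.15 CPM in Tomato+ 5. Mean CPM was higher in Tomato+ for 25 of the 63 members and lower for 38, beside 2321 and 2371 of all 4692 genes. Both tallies moved when single libraries were left out, and so did those of all genes. Tomato- 4 alone held 9 of the 16. Without it, 16 of 54 members (29.6%) were seen in Tomato+ alone and 7 (13.0%) in Tomato- alone. The shares over the 4203 genes with a count there were 38.3% and 16.0%. The mean was then higher in Tomato+ for 28 members (51.9%) and lower for 26, beside 59.2% higher over all genes. Members seen in Tomato+ alone numbered 13 without Tomato- 3 (21.3%), 5 without Tomato+ 2 (8.33%) and 5 without Tomato+ 5 (8.33%). Over all genes these shares were 31.7%, 23.3% and 17.9%.

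Per kilobase of transcript, which allows genes to be set against each other, Rpl41 was again the highest member at 276 CPM per kb over the 10 libraries. Rplp1 followed at 136 and Rplp0 at 90.2 CPM per kb. Rpl7 stood at 31.9 and Rpsa at 23.98 CPM per kb. For Rplp0 and Rpl7 these means rest on 6 and 2 libraries.

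Members that were seen and members that were not overlapped in how much of their sequence is their own. All 86 members matched a GENCODE M21 gene, and 82 (95.3%) shared at least 1 window of 50 bases with a transcript of another gene. The median share of windows found in no other gene was 57.2% for the 12 core members present in 5 or more libraries, 56.8% for the 51 present in 1 to 4 and 39.5% for the 14 absent from all. The ranges were wide, 14.6 to 68.7%, 6.68 to 100% and 1.35 to 93.5%. Rps3, with 97.0% of its windows its own, was in 1 library, and Rpl8, with 93.5%, in 0, while Rpl10, with 14.6%, was in 5. Median transcript length was 900.5, 887 and 818.5 bases in these classes. A TOP-like start, a C followed by at least 4 pyrimidines, was looked for at the annotated first base of every basic protein-coding transcript. At least 1 transcript had it for 20 of the 77 core members (26.0%) and 4.21% of 21899 protein-coding genes. Genes with more annotated transcripts had more chances to show such a start. By class it was found for 3 of 12, 12 of 51 and 5 of 14. Annotated first bases are often not the used ones, and a start without this run of letters says nothing of the mRNA's control.

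**Figure D5:**
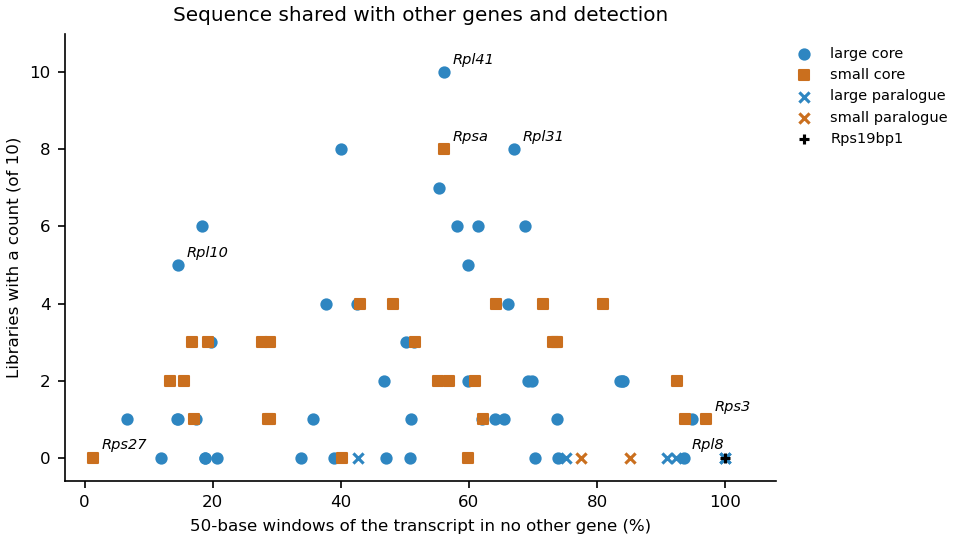
Libraries with a count (vertical axis, of 10) against the percentage of a transcript's 50-base windows found in no other gene (horizontal axis). There is 1 point for each of 83 genes of the symbol rule, Rps19bp1 among them. Absent members range from 1.35% (Rps27) to paralogues at 100%, and Rpl41, in all 10 libraries, lies at 56.1%.

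Of ribosomal proteins whose symbols fall outside the rule, Fau, the ubiquitin-like fusion that gives S30, had counts in 7 libraries, with means of 28.5 ± 25.3 CPM in Tomato+ and 14.1 ± 19.5 CPM in Tomato- (SD, n = 5 each). Its log2 fold change was 0.97 (SE 2.34, edgeR adjusted p 0.9996). Gnb2l1 (Rack1), the small-subunit scaffold protein, had counts in 1 library, at 17.4 CPM.

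Other TOP mRNAs, most of them for translation factors, were also seen in both fractions. Of 16 listed, 11 had a count, summing to 923 ± 445 CPM in Tomato+ and 1369 ± 521 CPM in Tomato- (n = 5 each). Of 5 tested 0 were called, as were 0 of all 1016 genes tested. Their log2 fold change was positive for 1 and negative for 4, beside 592 positive of all 1016 (58.3%). Eef1a1, the elongation factor that delivers aminoacyl-tRNA, averaged 101 ± 114 and 302 ± 280.2 CPM. Pabpc1, the poly(A)-binding protein, averaged 210 ± 74.1 and 326 ± 307 CPM. Eef1a1 and Pabpc1 had a count in all 10 libraries, and Eef2, the translocation factor, in 7. Eef1a1 nevertheless fell under the 3-count limit of Tomato+ 1, with 0.0855 CPM, and of Tomato+ 3, with 0.154 CPM. It was also low in Tomato- 5 (1.29 CPM), while its peak was 754 CPM, reached in Tomato- 2. Levels of Pabpc1 ranged from 71.0 to 778 CPM.

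Few genes that build ribosomes had a count. Of 31 biogenesis factors 3 had a count, Npm1 and Eif6 in 1 library each and Polr1b in 2, the last at a mean of 0.0124 CPM over Tomato+ libraries and 0.025 CPM over Tomato- libraries. Eif4ebp1, the translation repressor that mTOR phosphorylates, averaged 608 ± 199.9 CPM in Tomato+ libraries and 731 ± 517 CPM in Tomato- ones. It was the most abundant of 12 listed genes of mTOR and LARP1 control, of which 6 had a count. Ribosome rescue and quality control genes had a count for 2 of 9 (Edf1 and Nemf). Among mitochondrial ribosomal proteins 22 of 76 had a count, led by Mrps24, Mrps21 and Mrps11, and they summed to 111 ± 153 CPM in Tomato+ and 212 ± 164 CPM in Tomato-. Of these lists, 1 gene (Eif4ebp1, log2 fold change 0.03, SE 1.31) passed the expression filter, and 0 were called by edgeR's quasi-likelihood test. Pseudogene symbols left out of the rule had counts for 2 of 6, each in 1 library.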

How the data were processed

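Platelet RNA was sequenced in 5 Tomato+ and 5 Tomato- libraries. Per the labels, cDNA was made from polyadenylated RNA by Smart-seq+, with Nextera XT libraries. The deposited table holds unnormalized read counts by gene symbol. Trimmomatic, FastQC, STAR, featureCounts and mm10 are named without versions, per the submitters' processing notes. The sources used here give neither the annotation nor the strand setting nor the handling of multi-mapping reads, so members with near-identical copies or overlapping genes are uncertain.

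The members, lists and tests were chosen with earlier results of these data known. Levels are CPM of all counts in a library. A gene was detected at 1 count or more. The fractions were tested in edgeR 4.0.16 under R 4.3.3 (robust quasi-likelihood fit, F test, TMM factors, default filter with minimum count 10 and minimum total 15, group as the sole term), with Benjamini-Hochberg adjustment over all tested genes and a threshold of 0.05. Sums, subunit shares and detection over members have no p. The test was tested on simulated data. Named members passed the filter, had counts in at least 5 libraries or were among the 5 of each subunit with the highest mean CPM; Rps19bp1 was added, paralogues were to be named with any count, and up to 3 genes with the highest mean CPM came from each other list. Members named besides these (Rplp2, Rpl9, Rpl28, Rpl36a, Rps3, Rps18 and members at 0) were chosen after their values were seen. Windows and coding sequences came from GENCODE M21, 1 transcript a gene, and TOP-like starts from all basic protein-coding transcripts of a gene. No 2 of the 10 libraries held the same counts within sampling noise (chi-square over its degrees of freedom at least 451 in 45 pairs), so none was merged; amplified reads can exceed that noise between technical repeats too, so this does not show that the samples are separate. Alternatives were DESeq2 1.42.0, other scalings and filters, a replicate block, and leaving out libraries; for members with any count, members seen in 1 fraction and the tally of mean directions, they were chosen after seeing the data. Values of 4 genes are not reported here by name and are left out of the gene plots; counts and sums over members include those that are members.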

Additional observations from a re-analysis of the deposited data

Results flagged for a closer look

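In each value below, 1 library lay far from the other 4 of its fraction, by the ratio of its gap to the group's whole range (Dixon's limit for 5 values, 0.71). Of 41 groups of 5 looked at, 15 held such a library, while chance gives about 1 in 20; groups with many values at 0 meet the limit readily. The large-subunit share of ribosomal protein counts was 52.9% in Tomato+ 3. In Tomato+ libraries, Rpsa stood apart at 92.0 CPM, Rps23 at 31.5 CPM and Rpl4 at 195 CPM, all in Tomato+ 2. Rps4x stood apart in Tomato+ 3 at 0.154 CPM, its only value above 0 in that fraction. Rpl35 stood apart at 20.7 CPM in Tomato+ 1, Rps14 at 88.1 CPM in Tomato+ 4 and Rpl10 at 14.99 CPM in Tomato+ 5. In Tomato- libraries, Tomato- 1 stood apart for Rpl7 at 348 CPM, Rps4x at 163 CPM and Rpl17 at 28.2 CPM. Tomato- 5 stood apart for Rps23 at 88.7 CPM and Rpl35 at 28.6 CPM. Rps14 at 47.8 CPM in Tomato- 3 and Rpl4 at 49.1 CPM in Tomato- 4 completed the set.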

How the results depend on the processing

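With each library left out in turn, 0 to 0 ribosomal protein genes and 0 to 0 of all genes were called. DESeq2 called 1 gene, no member, edgeR without a low-count filter 0 of 63 members (22 of them, and 1764 of all 4692 genes, at an unadjusted p under 0.05). Summed ribosomal protein CPM gave log2 ratios of -0.64 to -0.35 with a library left out, and -0.0378 over members in all 10 libraries, which is Rpl41 alone, so that the large-subunit share there is 100% by construction. With a library left out that share was 70.8 to 74.9%, members detected per library 16.4 to 20.4, and members with any count 54 to 63. Same-numbered libraries correlated at -0.11 to 0.12. This cannot tell whether they are pairs, since most genes came and went between libraries. With the replicate block, edgeR's quasi-likelihood test called 0 genes, and 17 had an unadjusted p under 0.05. In that fit Rpl31 (2.76) turned positive, and the median of the 11 members was 0.16, with 6 positive. TMM put the median log2 fold change of all genes at 0.21 and total counts at -0.03, where Rpl41 was at -0.0398. The libraries with under 1000 detected genes were all Tomato-: Tomato- 1 (902), Tomato- 2 (978) and Tomato- 5 (807). Without them, Tomato- rests on libraries 3 and 4 alone. In that fit Rpl37a was at -0.0153, Rpl35 at 0.20, Rpl37 at 0.08 (1.44 with all libraries), Rpl24 at -0.80 (-2.54) and Rpl17 at 3.94 (2.30). By edgeR's quasi-likelihood test 0 of 37 members were called there. At an unadjusted p under 0.05 it was 2 members and 68 of all 2157 genes tested. Leaving out 1 library turned Rpl41 (-0.0944 to 0.42, the lowest without Tomato+ 2), Rpl31 (-0.77 to 0.79), Rplp0 (-0.80 to 0.43) and Rpl35 (-2.97 to 1.495), the last 3 without Tomato- 5. The cause was not tested. Rplp1, Rpsa, Rpl17, Rpl37 and Rpl24 kept their sign under every alternative of processing run except the set of genes with 10 counts in every library, which holds none of them. With single libraries left out, Rpl37a kept its sign (0.99 to 2.22), as did Rplp1 (-1.46 to -0.54), Rpsa (-2.96 to -0.15), Rpl17 (1.32 to 4.52), Rpl37 (1.04 to 2.90) and Rpl24 (-4.05 to -1.45). Thinning every library to the smallest total left 61 of 63 members with a count.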
